A study of Homo sapiens with 6 samples.

Results

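The 10 genes that encode the main AP-1 proteins (FOS, FOSB, FOSL1, FOSL2, JUN, JUNB and JUND) and the EGR factors EGR1, EGR2 and EGR3 were examined by mRNA-seq in Kasumi-1 cells. They were taken by gene symbol from the 29810 genes of the deposited FPKM table, and all 10 were found. Kasumi-1 is a human acute myeloid leukemia line with the t(8;21) translocation, which fuses RUNX1 to RUNX1T1. Of the 6 libraries, 3 were from control cells, which per the study's methods were given the solvent DMSO, and 3 were from cells incubated with 0.25 μM of I3, an inhibitor of histone deacetylases (HDACs). The labels and the methods give 48 h of incubation for both groups, whereas a figure legend of the study gives a longer time. The libraries come from a single cell line, and the labels do not say whether replicates were separate cultures, so p-values measure the spread between these libraries, which may be technical. The comparison asks whether the RNA of these transcription factors differed after I3.

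AP-1 is a dimer of a JUN protein with a FOS protein, or of JUN proteins with each other, and it binds short DNA sites known as TRE and CRE. FOS, FOSB, JUN, EGR1, EGR2 and EGR3 are immediate early genes, whose RNA is made within minutes of a signal through MAP kinases, by way of serum response factor at CArG boxes and of CREB at CREs, and is then rapidly lost. JUND and FOSL2 are known for steadier expression. In myeloid cells, AP-1 and EGR factors are known for their part in the differentiation into monocytes and macrophages.

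The promoters of JUND, JUNB and EGR1 are shown, the first 2 because they were the most abundant of these genes and EGR1 because it carries the sites of serum response factor. Each sequence is the 200 bases before the RefSeq start of the gene (GRCh38.p14), on the strand of the gene, and capitals mark the motif found there. JUND (chr19:18281623-18281822, minus strand) holds a CRE, JUNB (chr19:12791286-12791485, plus strand) holds a TATAAA and EGR1 (chr5:138465279-138465478, plus strand) holds 2 CArG boxes.
JUND: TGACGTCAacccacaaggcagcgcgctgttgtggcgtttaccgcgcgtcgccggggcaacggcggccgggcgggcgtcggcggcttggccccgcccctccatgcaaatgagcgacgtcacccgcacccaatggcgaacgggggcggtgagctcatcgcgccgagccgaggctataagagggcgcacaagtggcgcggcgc
JUNB: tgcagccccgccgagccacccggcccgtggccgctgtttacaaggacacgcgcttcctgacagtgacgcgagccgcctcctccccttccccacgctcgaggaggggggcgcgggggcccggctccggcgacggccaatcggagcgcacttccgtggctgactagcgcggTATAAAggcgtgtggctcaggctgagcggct
EGR1: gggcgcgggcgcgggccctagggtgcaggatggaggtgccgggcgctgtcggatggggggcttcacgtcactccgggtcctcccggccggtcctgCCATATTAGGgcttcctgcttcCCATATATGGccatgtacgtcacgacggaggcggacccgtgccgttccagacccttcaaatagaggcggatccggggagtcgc
Motifs were searched on both strands over 250 bases before the start. The CRE was searched as TGACGTCA, the TRE as TGANTCA, the variant TRE as TGACATCA and the EGR site as GCGTGGGCG. None of these motifs overlapped another in the promoters searched. The CRE of JUND spans bases -200 to -193, and 1.65% of 35116 RefSeq promoters hold one. The CArG boxes of EGR1 span bases -105 to -96 and -83 to -74, and 1.16% of promoters hold a CArG box. JUN holds the variant TRE at bases -67 to -60, as do 2.38% of promoters. TATAAA was found in FOS, FOSB and JUNB and in 10.7% of all promoters. A TRE is in 6.57% and an EGR site in 0.720% of all promoters, and no promoter searched here held either. Promoters were matched for 8 of the 10 genes, not for FOSL1 and EGR3, and EGR2 was searched at the first of its 3 listed starts. A match of letters is a description and not a bound site.

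Multiplied by the exon length of the gene, the FPKM values of all 10 genes were whole numbers of reads in each library, within 0.1 read. The worth of 1 read gave depths of 17663213, 17798678 and 17500320 reads for control 1, 2 and 3. For I3 1, 2 and 3 they were 17818414, 17794814 and 18193371 reads. The depth therefore differed little between groups. The lowest values of ACTB, GAPDH and HPRT1 were 1070, 883 and 40.6 FPKM, so zeros were taken as genes without a counted read. Pairs of replicates differed by far more than counting error, with a chi-square per degree of freedom of at least 4.23 over 12731 genes, and were kept as separate libraries.

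The marker genes of the cell line were present in each library. MPO, the peroxidase of myeloid granules, had 7740 to 8612 FPKM, and KIT, a receptor of blood progenitors, had 198 to 225 FPKM. CD34 (28.9 to 38.8 FPKM) and RUNX1T1 (14.1 to 17.0 FPKM), a partner of the fusion, were also detected. Of the markers of other cells, the erythroid ones summed to 0.0263 FPKM or less, those of megakaryocytes to 0.263 FPKM or less and those of T and B cells to 1.25 FPKM or less. CD14, a monocyte marker, was listed at 0 in 5 libraries and had 0.0303 FPKM in control 3. The monocyte list summed to 12.2 to 15.6 FPKM in control and 10.7 to 15.5 FPKM in I3 libraries, and LYZ was its most abundant gene. EPCAM, which is known as an epithelial marker, had 28.2 to 31.6 FPKM, whereas the fibroblast gene COL1A1 had 0.0115 FPKM in control 1 and was listed at 0 in the others.

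The levels of the 10 genes differed widely. JUND was the most abundant with a mean of 45.0 FPKM over 6 libraries, above 93.7% of the 12960 tested genes. JUNB followed with 27.9 FPKM (above 89.1% of genes), and then FOSL2 with 14.3 FPKM and JUN with 12.2 FPKM. The ranges of FOSL2 and JUN overlapped, so their order is not beyond the spread. FOSL1 had 3.91 FPKM. EGR1 with 1.07 FPKM and FOS with 0.776 FPKM overlapped in range and lay above only 15.3% and 9.30% of tested genes. FOSB had 0.186 FPKM, and EGR2 and EGR3 had 0.0128 and 0.00579 FPKM, again with overlapping ranges. All other neighbours in this order had ranges that did not touch. FPKM values are per length of all annotated exons, so a gene with long rare exons, such as FOSB with 5553 nt, gets a lower level than its main transcript would give.

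**Figure D1:**
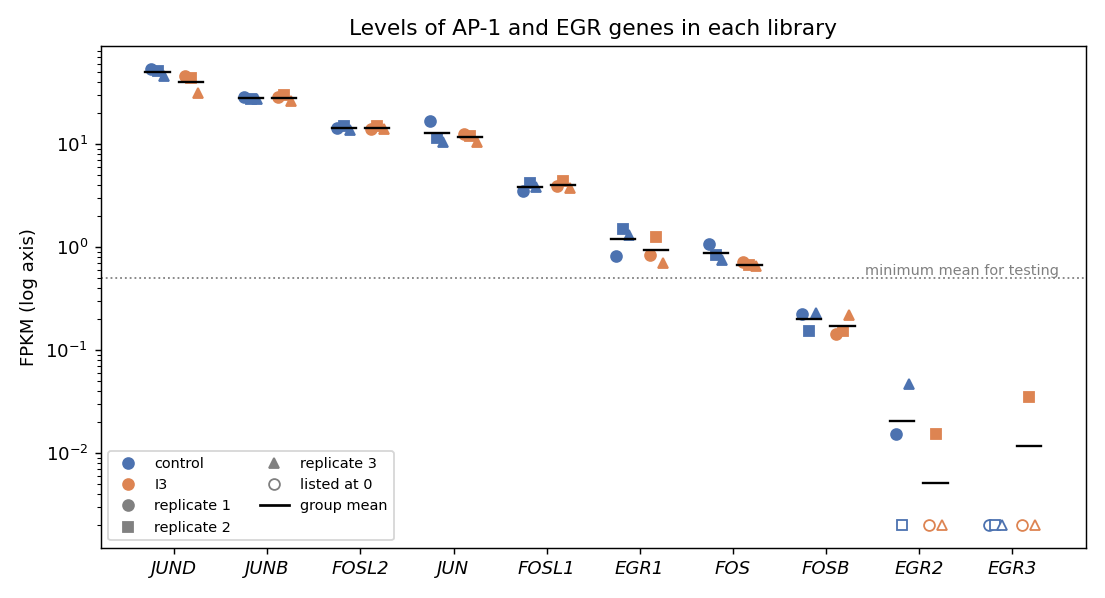
FPKM of the 10 genes (log axis) in each of 3 control and 3 I3 libraries, ordered by the mean over 6 libraries. Points are libraries, black bars are group means, open symbols at the bottom stand for values of 0, and JUND at 30.9 to 53.5 FPKM lies above all the other genes.

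The JUN proteins are needed in each AP-1 dimer, and they made up most of the AP-1 RNA. Summed over JUN, JUNB and JUND, control libraries had 90.5 ± 7.85 and I3 libraries 79.6 ± 10.4 FPKM (SD, n = 3), against 19.2 ± 0.732 and 19.0 ± 0.846 for the 4 FOS genes. The ratio of the JUN to the FOS sum was 4.71 ± 0.396 in control and 4.18 ± 0.488 in I3 libraries, and these overlapped (two-sided exact permutation p = 0.3 with 3 against 3 libraries).

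JUND encodes the JUN protein that is usually present in resting cells. It had 53.5, 50.8 and 45.4 FPKM in control 1, 2 and 3, and 45.8, 43.3 and 30.9 FPKM in I3 1, 2 and 3. I3 3 was the lowest by far, and I3 1 was slightly above control 3, so the groups overlapped at a single pair. The means were 49.9 ± 4.14 (SD, n = 3) and 40.0 ± 8.01 (SD, n = 3) FPKM. The log2 fold change was -0.33 with a 95% interval of -0.68 to 0.012 (limma, unadjusted p = 0.0563, adjusted p = 0.998 by the Benjamini-Hochberg method). The order of JUND, FOS and EGR1 by size of the log2 fold change depends on the scale, since with a pseudocount of 0.01 they had -0.34, -0.37 and -0.36. The JUND value rested in part on I3 3, without which it was -0.16. The exact permutation p was 0.2, where 0.1 is the smallest that 3 against 3 libraries allow. JUND lies on chromosome 19 from 18279760 to 18281622 (GENCODE 29, GRCh38), and its transcripts have the highest GC content of the 10 genes, 69.7%. After removal of the GC trend of each library the log2 fold change was -0.20.

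JUNB encodes a JUN protein that activates some targets and dampens others. It had 28.7, 27.4 and 27.3 FPKM in control 1, 2 and 3 and 28.2, 29.5 and 26.3 FPKM in I3 1, 2 and 3. The I3 libraries enclosed the control values. The log2 fold change was 0.0095 with a 95% interval of -0.13 to 0.15, which corresponds to 0.911 to 1.11 times the control level. With the GC trend removed it was 0.088, and the I3 values of 28.5 to 28.9 FPKM still overlapped the control values of 25.3 to 28.9 FPKM. Its exons share 259 nt, 14.2% of their length, with HOOK2 on the opposite strand. Whether reads were counted by strand was not stated in the sources used here.

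JUN encodes the founding member of the family. It had 16.5, 11.3 and 10.4 FPKM in control 1, 2 and 3 and 12.4, 11.9 and 10.4 FPKM in I3 1, 2 and 3. Control 1 stood above the other 5 libraries, which lay close together. I3 and control differed by a log2 fold change of -0.11 (95% interval -0.49 to 0.27, adjusted p = 0.998 from limma). Its sign rested on control 1, since it was 0.083 without that library.

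The make-up of the JUN family was compared as the share of each gene in the family's summed FPKM, which does not depend on the scaling of a library. JUND held 54.2%, 56.8% and 54.6% in control 1, 2 and 3, and 53.0%, 51.1% and 45.7% in I3 1, 2 and 3. Every I3 library lay below every control library, with a mean difference of -5.26 percentage points. The exact permutation p was 0.1, the smallest possible with 3 against 3 libraries, and 0.5 after adjustment over the shares of 10 genes. JUNB held 30.8 ± 1.88% of the family in control and 35.5 ± 3.16% in I3 libraries (SD, n = 3), and these groups overlapped (exact permutation p = 0.2). JUN held 13.97 ± 2.38% and 14.6 ± 0.741% (SD, n = 3). The shares of a family sum to a whole, so they do not move separately. The JUND difference was -4.04 percentage points after removal of the GC trend, where the groups were still apart by the narrow margin of 53.1% in I3 1 against 53.2% in control 1, and -3.13 percentage points without I3 3.

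**Figure D2:**
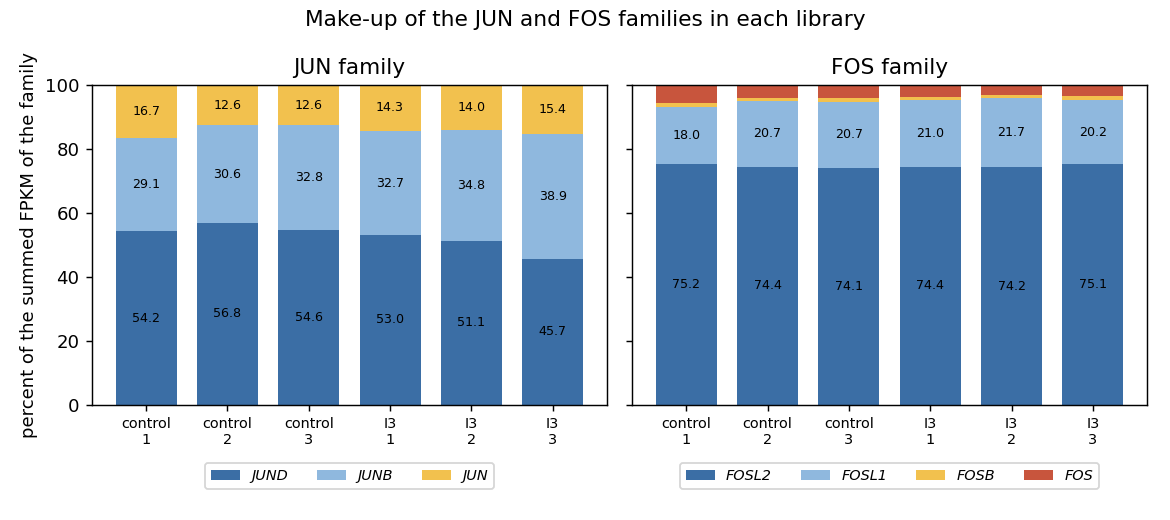
Share of each gene in the summed FPKM of the JUN family (left) and the FOS family (right), in percent, for each library. JUND held 54.2% to 56.8% in control and 45.7% to 53.0% in I3 libraries, while FOSL2 held 74.1% to 75.2% of the FOS family in all 6 libraries.

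The FOS proteins cannot pair with each other and bind DNA as partners of JUN proteins. FOSL2 held 74.6 ± 0.591% of the FOS family in control cells and 74.6 ± 0.483% after I3 (SD, n = 3). FOSL2, which encodes FRA2, had 14.4, 14.9 and 13.7 FPKM in control 1, 2 and 3 and 13.9, 14.9 and 13.9 FPKM in I3 1, 2 and 3. It rests on 5435 reads in control and 5468 reads in I3 libraries, and its values varied little between libraries of either group. Its log2 fold change was -0.013 with a 95% interval of -0.16 to 0.13, or 0.898 to 1.09 times the control level.

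FOSL1, which encodes FRA1, had 3.45, 4.14 and 3.85 FPKM in control 1, 2 and 3 and 3.93, 4.35 and 3.73 FPKM in I3 1, 2 and 3. The groups overlapped, with the lowest value in control 1 and the highest in I3 2. On the log2 scale the difference was 0.063 (95% interval -0.16 to 0.28), and it was 0.0012 without control 1, 0.0079 without I3 2 and 0.12 without control 2. After removal of the GC trend all 3 I3 libraries (3.94 to 4.18) lay above all 3 control libraries (3.56 to 3.89), with a log2 fold change of 0.10. After that correction the same held for 5.32% of all tested genes.

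FOS, the prototype of an immediate early gene, had 1.07, 0.833 and 0.741 FPKM in control 1, 2 and 3 and 0.711, 0.659 and 0.645 FPKM in I3 1, 2 and 3. Each I3 library lay below each control library, although the gap between I3 1 and control 3 was a single read (41 and 42 reads). The means were 0.880 ± 0.168 (SD, n = 3) and 0.672 ± 0.0345 (SD, n = 3) FPKM. The log2 fold change was -0.23 with a 95% interval of -0.60 to 0.14 (adjusted p = 0.998 from limma, unadjusted p = 0.185), on the scale of log2(FPKM + 0.5), which understates the change of a low gene. The exact permutation p was 0.1. The sum of 151 reads in control and 117 in I3 libraries gave a ratio of 1.31 at equal depth, with an exact 95% interval of 1.02 to 1.68 that covers counting error only. Without control 1 the log2 fold change was -0.13. After removal of the GC trend the groups overlapped, with 0.735 FPKM in I3 1 and 0.722 FPKM in control 3.

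FOSB was below the minimum of 0.5 FPKM and was taken from the fit without a minimum. The 3 control libraries held 22, 15 and 22 reads, and the 3 I3 libraries 14, 15 and 22. The groups overlapped, and the log2 fold change was -0.064 (95% interval -0.29 to 0.16). It was -0.033 without I3 1, -0.12 without control 2 and -0.23 with a pseudocount of 0.01. FOS held 4.58 ± 0.869% of the FOS family in control and 3.53 ± 0.259% in I3 libraries (SD, n = 3), with groups that did not overlap (exact permutation p = 0.1, adjusted p = 0.5 over 10 shares). The difference of -1.05 percentage points was -0.546 without control 1. FOSB held 1.05 ± 0.254% and 0.899 ± 0.243%.

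The EGR factors bind GC-rich sites with zinc fingers, and nearly all of their RNA came from EGR1. EGR1 had 0.812, 1.49 and 1.31 FPKM in control 1, 2 and 3 and 0.841, 1.25 and 0.701 FPKM in I3 1, 2 and 3. Control 2, control 3 and I3 2 were high and the other 3 libraries were low, so both groups held values at either level. The log2 fold change was -0.25 with a 95% interval of -0.75 to 0.26 (adjusted p = 0.998 from limma, unadjusted p = 0.289). It was -0.42 without control 1, -0.40 without I3 2, -0.13 without control 2 and -0.13 without I3 3. These values stand for 200 reads in control and 157 in I3 libraries.

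EGR2 and EGR3 were at the limit of detection. For EGR2 the control libraries held 1, 0 and 3 reads, and the I3 libraries 0, 1 and 0. Its 4 reads against 1 make a ratio of 4.06 at equal depth (exact 95% interval 0.402 to 200), so no difference was detectable at this depth. EGR3 had no read in any control library, which allows up to 3 reads over the group or 0.0117 FPKM, and 3 reads in I3 2 alone. No fold is given for EGR3, since both groups were at or under this limit. Its exons share 164 nt with AC055854.1 on the opposite strand.

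Over all tested genes, limma called 0% (0 of 12960) as higher or lower after I3. A call needed an adjusted p under 0.05 together with a log2 difference of 0.58 or more. The smallest adjusted p of any gene was 0.309. Of the 10 genes, 7 passed the minimum of 0.5 FPKM, and 0 of these 7 were called. At an unadjusted p under 0.05, again 0 of the 7 passed, with or without the fold threshold, where 1.40% of tested genes passed with the fold threshold and 4.93% without it. Without control 1 the latter share was 10.97%. Groups did not overlap for 1 of the 7, FOS, which was lower after I3. This was the case for 4.64% of all tested genes in that direction, and for 5.06% in the other direction, where none of the 7 was found. The median log2 fold change of the 7 genes was -0.11, with 5 lower and 2 higher, beside a median of 0.011 over all tested genes. In this fit all 95% intervals of these genes held 0, although JUND had an unadjusted p under 0.05 in 6 of 20 alternative settings, with an adjusted p from limma of 0.562 or more in each of the 20.

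**Figure D3:**
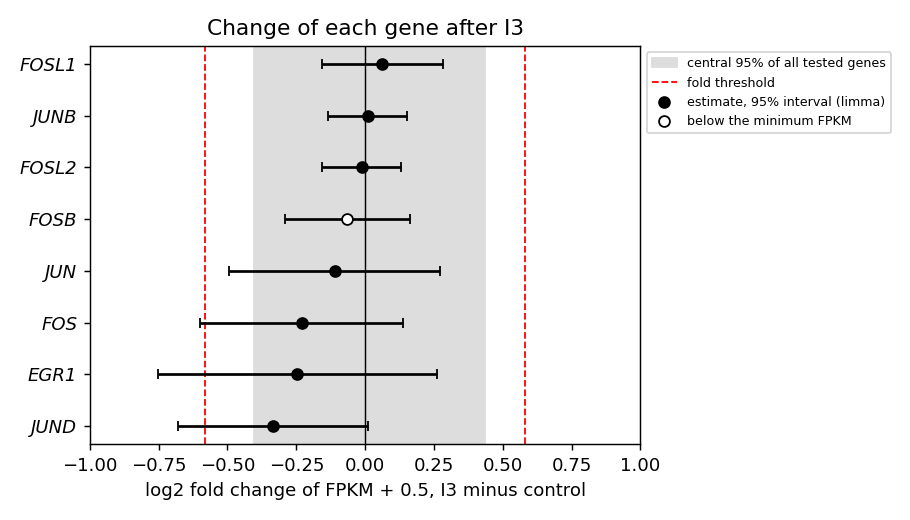
Log2 fold change of FPKM + 0.5 between I3 and control libraries for the 8 genes with enough reads, with 95% intervals from limma. Filled points passed the minimum of 0.5 FPKM, dashed lines mark the fold threshold of 0.58, and the grey band holds the central 95% of all tested genes (-0.40 to 0.44), inside which all 8 estimates lie.

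The libraries also differed in how their values followed the GC content of the transcripts. Over 12939 tested genes, the rank correlation of a library's deviation with GC content was -0.313 in control 1, 0.446 in control 2 and 0.337 in control 3. It was -0.232 in I3 1, 0.262 in I3 2 and -0.446 in I3 3. These are correlations across genes, which are not independent replicates. EGR1, with a GC content of 55.4%, was high in the 3 libraries of positive sign and low in the 3 of negative sign. Removal of the GC trend left EGR1 in the same order, with 1.20 to 1.42 in control 2, control 3 and I3 2 and 0.734 to 0.852 in the others, and a log2 fold change of -0.24. JUND was lowest in I3 3, the library with the most negative value, and highest in control 1, also of negative sign. FOS, JUN and JUND were all highest in control 1, by 0.30, 0.44 and 0.27 above their means on the log2 scale.

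**Figure D4:**
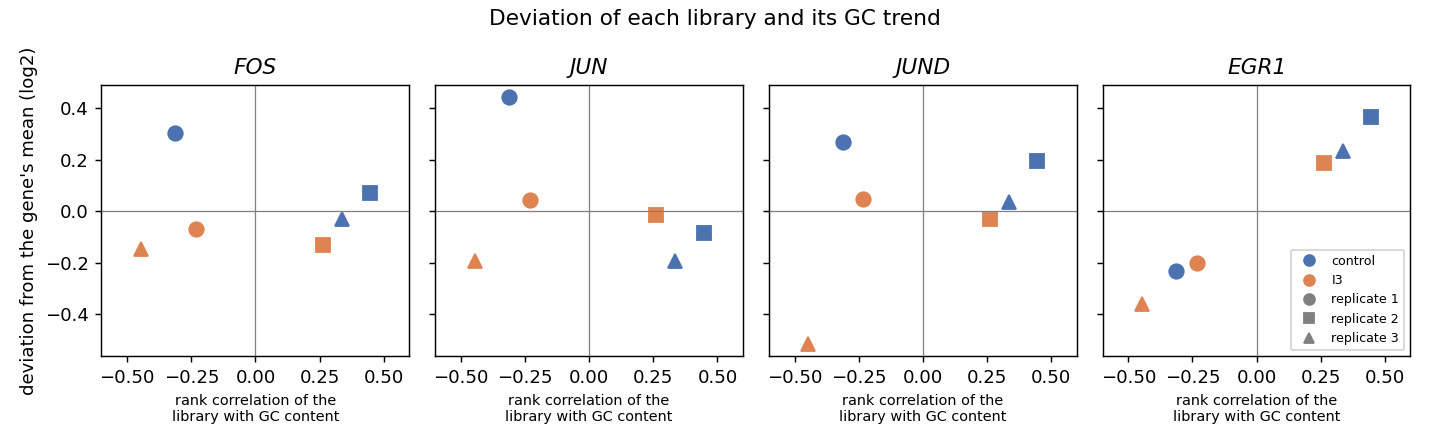
Deviation of each library from the mean of FOS, JUN, JUND and EGR1 (log2 of FPKM + 0.5) against the rank correlation of that library with GC content. Control libraries are blue and I3 libraries orange, and EGR1 separates the libraries by the sign of the GC trend (0.19 to 0.37 above its mean on the right) and not by group.

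Genes around AP-1 and EGR were described by 5 lists written from general knowledge. Their counts and medians are given beside 5934 lower and 7026 higher of all 12960 tested genes. All values of the lists are without the GC correction. GC contents differed between the listed genes, for example 44.6% for ATF2 and 60.2% for BATF. Whether the GC trend of the libraries moved the counts of lower and higher genes was not tested. Of 12 partners of AP-1, 8 were tested. None was called or had an unadjusted p under 0.05, 7 were lower and 1 was higher after I3, and the median log2 fold change was -0.11. The most abundant was ATF2, a partner of JUN at CREs, which had 10.5, 10.1 and 9.46 FPKM in control 1, 2 and 3 and 11.02, 10.8 and 10.9 FPKM in I3 1, 2 and 3. It was the one of 8 with groups that did not overlap, higher after I3, beside 5.06% of all tested genes, and its log2 fold change was 0.12 (adjusted p = 0.998 from limma). BATF, a partner of JUN in lymphoid and dendritic cells, had a log2 fold change of -0.18.

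Of 21 kinases and factors that act upstream of immediate early genes, 19 were tested and none was called or had an unadjusted p under 0.05. The list was split into 11 higher and 8 lower, with a median log2 fold change of 0.033. SRF, the serum response factor that binds CArG boxes, was the most abundant with 26.7 ± 2.12 FPKM in control and 23.5 ± 2.08 FPKM in I3 libraries (SD, n = 3) and a log2 fold change of -0.18. MAPK8, which encodes the JUN kinase JNK1, had 6.54 ± 0.215 and 7.22 ± 0.360 FPKM (SD, n = 3) and was the one of 19 with groups that did not overlap, higher after I3, as were 5.06% of all tested genes. Its log2 fold change was 0.13.

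Of the relatives and co-regulators of the EGR factors, 3 of 4 were tested and none was called or had an unadjusted p under 0.05. After I3, 2 were higher and 1 was lower, with a median log2 fold change of 0.012. NAB2, a corepressor of EGR proteins and itself known as an EGR target, had 8.28 ± 0.689 FPKM in control and 8.33 ± 0.170 FPKM in I3 libraries (SD, n = 3). NAB1, the other corepressor, had a log2 fold change of 0.13 and WT1, a related zinc finger factor, of -0.19.

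Of 27 other immediate early genes, 18 were tested, with 13 lower, 5 higher and a median log2 fold change of -0.11. None was called. IER5 was the one of 18 with an unadjusted p under 0.05 and the one with groups that did not overlap, lower after I3, beside 4.93% and 4.64% of all tested genes, so these counts are near the background. It is induced by growth factors and stress and had 8.22, 9.04 and 8.27 FPKM in control 1, 2 and 3 and 7.12, 6.49 and 5.79 FPKM in I3 1, 2 and 3. All control libraries lay above all I3 libraries. On the log2 scale the difference was -0.37 with a standard error of 0.0876 (limma, adjusted p = 0.667, unadjusted p = 0.00336). ZFP36L2, which encodes an RNA decay factor, was the most abundant with 66.7 ± 4.41 and 58.6 ± 6.82 FPKM (SD, n = 3) and a log2 fold change of -0.19.

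Of 18 genes known as targets of AP-1 or EGR, 10 were tested, with 9 lower, 1 higher and a median log2 fold change of -0.12. None was called, and PLAU was the one of 10 with an unadjusted p under 0.05, beside 4.93% of all tested genes. PLAU, which encodes urokinase, had 10.2, 10.7 and 10.1 FPKM in control 1, 2 and 3 and 9.51, 9.49 and 8.38 FPKM in I3 1, 2 and 3, a log2 fold change of -0.17 (adjusted p = 0.998 from limma). Its exons share 31.1% of their length with C10orf55 on the opposite strand. In 3 of the 10 (PLAU, CXCL8 and TNF) control and I3 libraries did not overlap, all lower after I3, beside 4.64% of all tested genes. The latter are cytokine genes, named after their values had been seen, with log2 fold changes of -0.31 and -0.18. CXCL8 had 0.988 ± 0.172 FPKM in control and 0.694 ± 0.0921 FPKM in I3 libraries (SD, n = 3). TNF had 0.665 ± 0.0343 and 0.532 ± 0.0670 FPKM (SD, n = 3). Both genes were thus close to the minimum of 0.5 FPKM. TGFB1, a cytokine gene, was the most abundant with 93.2 ± 2.65 and 84.4 ± 7.42 FPKM (SD, n = 3).

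**Figure D5:**
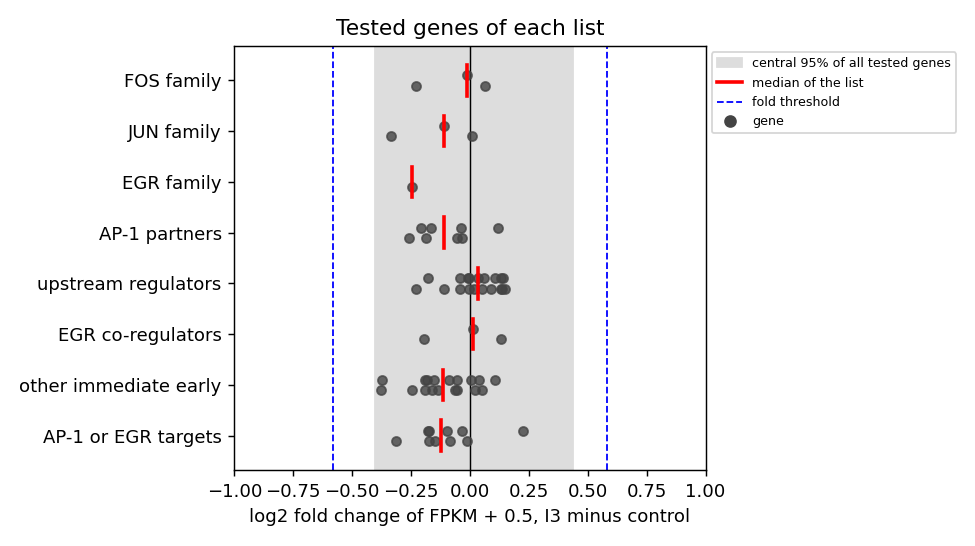
Log2 fold change of FPKM + 0.5 between I3 and control libraries for the tested genes of each family and list. Each point is a gene, red bars are medians, the grey band holds the central 95% of all tested genes, and all points lie within it and inside the fold threshold of 0.58 (dashed).

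The genes whose pattern was most like FOS, JUN and EGR1 were ranked by the correlation of log2(FPKM + 0.5) over 6 libraries among the 12960 tested genes. All genes were read from the same 6 libraries, with the depth and GC trend of each, so these are descriptions without a p-value. For FOS they were ZFAND5, which encodes a zinc finger protein, and the non-coding genes AC016773.1 and KDM7A-DT, with r between 0.978 and 0.994. For JUN they were TM7SF2, an enzyme gene of sterol synthesis, KRCC1 and LIMS1-AS1, with r between 0.981 and 0.995. KRCC1 had 8.30 FPKM in control 1 and 4.47 to 5.86 FPKM in the other libraries. For EGR1 they were RHOG, which encodes a small GTPase, SRM, the spermidine synthase gene, and AKT1S1, with r between 0.989 and 0.994, and these have GC contents of 60.6% to 64.3%.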

How the data were processed

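Kasumi-1 mRNA-seq libraries (3 control, 3 I3) were grouped by their labels. Per the labels a stranded mRNA kit was used, and the authors deposited 1 FPKM value per gene and library, with no counts of reads. The submitters' processing notes name Trimmomatic, HISAT2, Cufflinks, HTSeq and hg38. Roles, versions and annotation: not given in the sources used here. A file name gives the compound as I13, while labels and columns give I3.

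Identifiers were matched to GENCODE 29 (29703 of 29810), from which exon lengths, coordinates and GC contents were taken. Reads were rebuilt from FPKM and exon length, and 95.4% of 26609 genes above 0 came out whole within 0.1 read. The main test was limma 3.58.1 (R 4.3.3, lmFit, eBayes with trend, two-sided) on log2(FPKM + 0.5) for the 12960 genes whose mean reached 0.5 FPKM, with Benjamini-Hochberg adjustment over all of them. The call thresholds were those of the methods. FOSB was taken from a fit of all 26609 genes above 0. Single values were compared with exact permutation tests (scipy 1.17.1). The procedure was tested on simulated data. The genes, lists and tests were chosen with earlier results of these data known. Named were all 10 genes and, per list, the most abundant tested gene and the 2 with the smallest unadjusted p, and the 3 genes most like FOS, JUN and EGR1. Of the genes listed, those with no value in the table were not analysed here. Alternatives were other pseudocounts, minimums, scalings, priors, fold thresholds, a GC correction (lowess, span 0.3), a replicate block, voom on rebuilt reads (12731 genes averaging 10 reads or more) and single libraries left out.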

Additional observations from a re-analysis of the deposited data

How the results depend on the processing

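None of the 10 genes was called at the adjusted or passed the unadjusted p with the fold threshold under any alternative run. EGR2 and EGR3 could pass only in the run without a minimum FPKM, since the other runs left them out. FOSB was left out of most runs for this count as well. Over all tested genes 0 were called in each alternative with all 6 libraries, and 0 to 2 with single libraries left out (2 without I3 1, 1 without I3 2 and 1 without control 1). The 182 genes past the unadjusted p and fold threshold became 391 on the TPM scale, where 16857 and not 12960 genes passed the minimum, 120 when the pseudocount was 1, 103 and 30 when the minimum FPKM was 1 and 5, and 69 when the fold threshold was 1. Without the fold threshold, JUND had an unadjusted p of 0.0428 when the minimum FPKM was 5, 0.0453 with median-of-ratios scaling, 0.0166 with voom and 0.0246 without I3 1, and the other genes had none under 0.05. Without control 1, 10.97% of all tested genes had an unadjusted p under 0.05, against 4.93%. Of the 8 AP-1 and EGR genes with enough reads, the groups did not overlap for 1, FOS. In either direction this held for 9.70% of all tested genes. With median-of-ratios scaling the number was 2 (FOS and JUND), beside 9.48% of all tested genes in either direction. It was 0 when the minimum FPKM was 1 or 5, which leaves FOS out. With the GC correction the 1 gene was FOSL1 in place of FOS, beside 10.95% of all tested genes in either direction. With single libraries left out the number was 1 to 2, and FOS was among them each time, but non-overlap was then found for 16.1% to 31.0% of all tested genes.

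Signs turned in some alternatives for FOSL2, JUNB and JUN. The log2 fold change of FOSL2 was 0.0042 with the GC correction, with or without the block, and -0.045 to 0.014 with single libraries left out. That of JUNB was -0.00039 with median-of-ratios scaling and -0.029 to 0.054 with single libraries left out, and that of JUN was -0.23 to 0.083. The share of FOSL2 in its family differed by -0.37 percentage points with the GC correction and by -0.25 to 0.36 with single libraries left out, and that of JUN by -0.17 and by -0.071 to 2.01. The cause was not tested. JUND, FOS, EGR1, FOSB and FOSL1 kept their sign in each alternative run. With single libraries left out JUND lay between -0.44 and -0.16, FOSB between -0.12 and -0.033 and FOSL1 between 0.0012 and 0.12, which is close to 0 at its lower end.

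The replicate numbers were not shown to pair the libraries. Deviations of same-numbered libraries from their group means correlated with r = 0.063, 0.15 and -0.024 over 12960 genes, and control 1 correlated best with I3 3 (0.10). The replicate block called 0 genes, moved the 182 genes to 200 and gave JUND an unadjusted p of 0.00874 (0.0139 with the GC correction; adjusted p of the block = 0.682 from limma, between 0.562 and 1 over its alternatives). Depth limits FOSB, EGR2 and EGR3, which rest on 110, 5 and 3 reads.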
